A study of Mus musculus with 6 samples.

Results

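The pre-B receptor and early B-lineage genes described here are 8 genes of the 21878 rows that each library file lists. They are Vpreb1, Vpreb3 and Igll1 (surrogate light chain genes), Cd79a and Cd79b (receptor signalling chains), Blnk (an adaptor), and Ebf1 and Pax5 (commitment factors). They were chosen by name, with their levels in control and IGF1 libraries already known, so their differences between these groups are given as a description. Calls of these genes in the fit over all genes are counted later, and nothing is read from these counts. RNA-seq had been performed on hematopoietic stem cells (HSCs) sorted from mouse bone marrow, with 3 control libraries (Ctrl) and 3 libraries of mice given IGF1, insulin-like growth factor 1. All mice carried the WT genotype. By the study's methods, the IGF1 was recombinant mouse protein given as 1 subcutaneous dose, the controls received vehicle, and the cells were taken at day 1 in the gate Lineage-Sca-1+c-Kit+Flt3-CD34-. The sources used here give no age, and they do not say whether a library came from 1 mouse or from pooled mice, so any p-value measures only the spread between these libraries, which may be technical. The text on RNA extraction in the labels speaks of IR mice, whereas the treatment label names IGF-1, and the groups were taken from the sample titles.

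A developing B cell first makes an immunoglobulin heavy chain and displays it on its surface before any light chain exists. The heavy chain pairs with a surrogate light chain built from the Vpreb and Igll1 proteins, and the Cd79a and Cd79b chains carry the signal of this pre-B receptor into the cell through the kinase Syk and the adaptor Blnk. Ebf1 and Pax5 are the transcription factors that specify and then fix B-lineage identity, and HSCs are normally described as lying well upstream of that step.

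The upstream sequences of the surrogate light chain genes and of Cd79a are shown first, because the levels of these genes moved together across libraries and because early B-lineage promoters are known for binding sites of E proteins and Ebf1. The sequences are those of RefSeq on GRCm38.p6, and 7 of the 8 genes had an entry in its promoter table, Cd79b being the exception. The 250 bases before each RefSeq transcription start were searched on both strands for an E-box (CAGNTG), an Ebf1 core (CCCNNGGG) and an Ikaros core (TGGGAA). Of 32851 mouse promoters of the same length, 44.8% held the E-box, 11.8% the Ebf1 core and 21.6% the Ikaros core, so a match is a description and not a site. Capitals mark the matches, and no 2 motifs overlapped in the stretches printed. The window of Igll1, which encodes the lambda5 chain, lies at chr16:16863986-16864235 on the minus strand, and that of Vpreb3 at chr10:75948050-75948299 on the plus strand. Neither window holds an annotated exon base.
Igll1: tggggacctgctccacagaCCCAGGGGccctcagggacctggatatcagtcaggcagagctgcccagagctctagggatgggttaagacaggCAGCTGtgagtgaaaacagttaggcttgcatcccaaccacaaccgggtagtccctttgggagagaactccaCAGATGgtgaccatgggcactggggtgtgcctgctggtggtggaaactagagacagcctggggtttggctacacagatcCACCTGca
Vpreb3: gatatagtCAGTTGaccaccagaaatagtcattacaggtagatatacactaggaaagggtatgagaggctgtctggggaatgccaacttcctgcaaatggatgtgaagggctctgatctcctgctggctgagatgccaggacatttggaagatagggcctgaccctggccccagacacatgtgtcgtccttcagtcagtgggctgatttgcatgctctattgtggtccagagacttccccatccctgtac
The Igll1 window held 3 E-boxes, starting 158, 87 and 8 bases before the start, and 1 Ebf1 core starting 231 bases before it. The Vpreb3 window held 1 E-box, 242 bases before the start, and neither of the other motifs. The windows of Vpreb1, its paralog Vpreb2 and Cd79a reach annotated exons, so only 30 bases around 1 E-box of each are shown, at chr16:16869326-16869355 (minus strand), chr16:17980321-17980350 (plus strand) and chr7:24897331-24897360 (plus strand).
Vpreb1: atgacgttccagCAGGTGcttcctcccaga
Vpreb2: atgactttccagCAGGTGcttcctcccaga
Cd79a: ttgtggccagccCAGGTGcagggcagttcc
The promoters of Vpreb1 and Vpreb2 share a run of 91 identical letters within the searched windows. The transcripts of these paralogs were not compared here. Reads from paralogs with near-identical transcripts may be divided between them by the counting, so the split between Vpreb1 and Vpreb2 is left uncertain. In the Pax5 window none of the 3 motifs was found, and the 2 Ebf1 promoter windows held 1 Ikaros core between them. The Blnk window held E-boxes starting 243 and 160 bases before the start. The Vpreb2 window also held an E-box and an Ikaros core starting 60 and 64 bases before the start.

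The genes lie on several chromosomes of GRCm38. Igll1 (chr16:16860671-16863985) and Vpreb1 (chr16:16868403-16870843) are neighbors on the minus strand, with 4417 bases between them. Vpreb3 lies at chr10:75943057-75949657 on the plus strand, Cd79a at chr7:24897381-24902197 on the plus strand and Cd79b at chr11:106311341-106314762 on the minus strand. Blnk lies at chr19:40928927-40994535 on the minus strand, Ebf1 at chr11:44617317-45008091 on the plus strand and Pax5 at chr4:44524757-44710487 on the minus strand. All 8 are annotated as protein-coding.

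Levels are given as FPKM (fragments counted per unit of transcript length and of sequencing depth), the unit the deposited values were taken to have. The steps in which those values rise gave whole reads, with 11206800 to 15973834 reads per library on listed genes. Before the results, 1 library has to be named. Ctrl replicate 2 stood apart from Ctrl replicates 1 and 3. It differed by more than 2-fold on the log2(FPKM + 1) scale from them in 2573 and 2587 genes, whereas Ctrl replicates 1 and 3 differed from each other in 1 gene. Ctrl replicate 2 differed from the IGF1 libraries in 105 to 125 genes, and it lay nearer to the IGF1 mean than to the mean of Ctrl replicates 1 and 3 in 77.3% of 10449 genes tested. Differences between the groups are therefore given with and without it. The cause was not tested.

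The RNA of 2 antigens went against the gate, so the cells are called HSCs here only as the labels call them. Cd34, whose protein the gate selects against, was at 640, 265 and 634 FPKM in Ctrl replicates 1, 2 and 3 and at 230 to 238 in the IGF1 libraries. Flt3, also selected against, was at 117 to 172 in Ctrl and 183 to 188 in IGF1. Of the HSC markers, Mecom lay between 0.672 and 4.10 FPKM, Slamf1 between 0.736 and 2.41 and Hoxb5 between 0.279 and 0.691, and Mpo, a granule enzyme of myeloid progenitors, lay between 1613 and 1705. The mature lineage antibodies of the study include one to B220, a surface antigen of B-lineage cells.

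**Figure D1:**
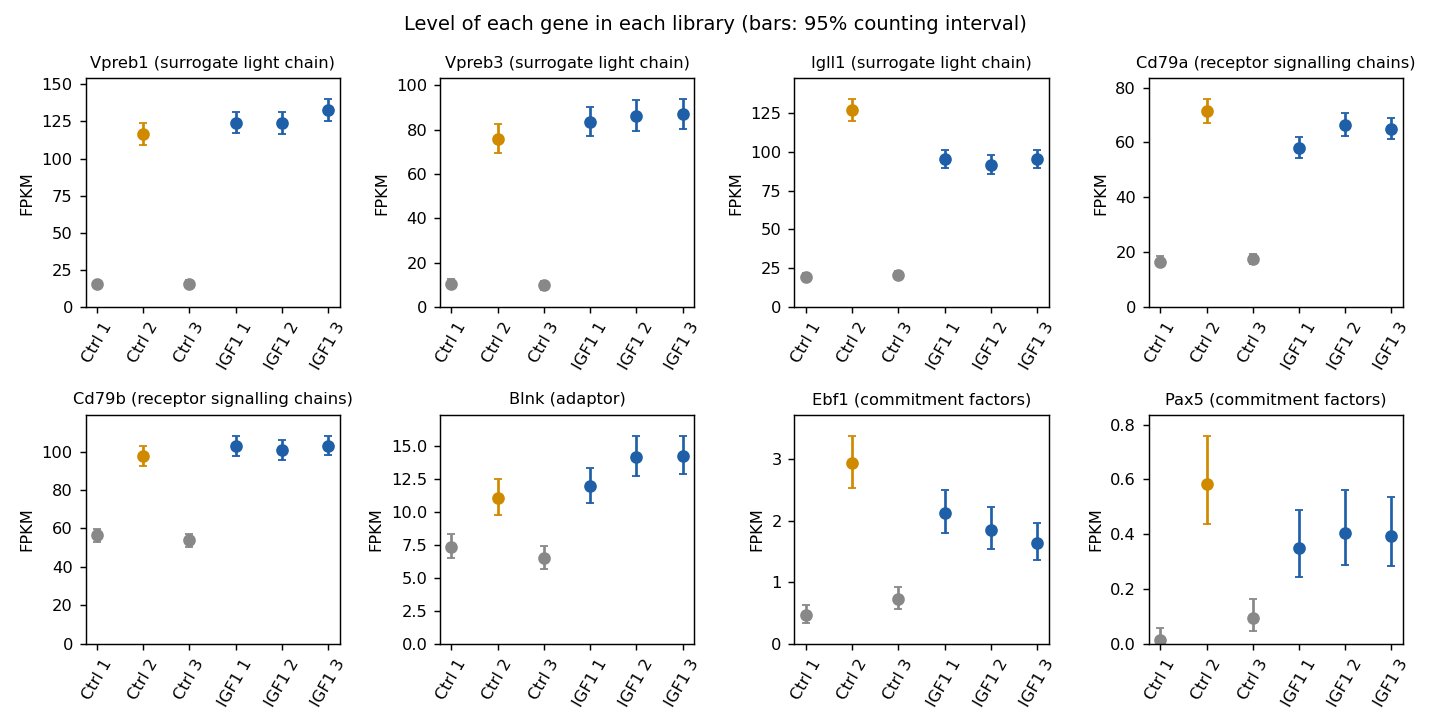
FPKM of each of the 8 genes (y axis, from 0) in each of the 6 libraries (x axis), with Ctrl replicates 1 and 3 in grey, Ctrl replicate 2 in orange, IGF1 libraries in blue and bars for the 95% counting interval. In all 8 panels Ctrl replicates 1 and 3 lie lowest and Ctrl replicate 2 lies with or above the IGF1 libraries or just below them.

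The surrogate light chain genes showed the widest range of the 8 in FPKM. Vpreb1, which encodes the variable-region-like part of the surrogate light chain, was at 15.4, 116.3 and 15.7 FPKM in Ctrl replicates 1, 2 and 3 and at 124.1, 123.7 and 132.6 FPKM in IGF1 replicates 1, 2 and 3. The 3 IGF1 libraries were high and close together, 2 controls were low, and Ctrl replicate 2 was just below the IGF1 libraries, so the groups did not overlap. These levels rested on 190 and 194 reads in the low controls and on 1031 to 1313 reads in the other libraries. The IGF1 minus Ctrl difference was 2.01 ± 0.94 (SE) on the log2(FPKM + 1) scale with all 6 libraries and 2.95 ± 0.03 without Ctrl replicate 2. The IGF1 mean was 8.15 times the mean of Ctrl replicates 1 and 3 in FPKM.

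Vpreb3, a related protein that binds the heavy chain inside the cell, followed Vpreb1. It was at 10.4, 75.6 and 9.76 FPKM in Ctrl replicates 1, 2 and 3 and at 83.6, 86.1 and 86.9 FPKM in the IGF1 libraries. Again the groups did not overlap and Ctrl replicate 2 lay next to the IGF1 libraries. The difference was 2.03 ± 0.93 (SE) with all libraries and 2.96 ± 0.05 without Ctrl replicate 2, the latter corresponding to a ratio of 8.47 in FPKM.

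Igll1 was at 19.7, 126.6 and 20.4 FPKM in Ctrl replicates 1, 2 and 3 and at 95.1, 91.5 and 95.2 FPKM in IGF1. Here Ctrl replicate 2 was the highest of the 6 libraries, at 1.35 times the IGF1 mean, and the groups overlapped. The difference was 1.31 ± 0.87 (SE) with all libraries and 2.17 ± 0.03 without Ctrl replicate 2. Relative to Ctrl replicates 1 and 3 the IGF1 mean of Igll1 was 4.69 times as high, compared with 8.15 for Vpreb1. In the counting intervals of the pooled reads these ratios were 4.29 to 5.15 for Igll1, 7.34 to 9.09 for Vpreb1 and 7.31 to 9.87 for Vpreb3. The interval of Igll1 lay below those of the other two, and the intervals cover counting error only.

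The signalling chains differed from each other in how far they moved. Cd79a was at 16.6, 71.4 and 17.5 FPKM in Ctrl replicates 1, 2 and 3 and at 58.0, 66.3 and 64.8 FPKM in IGF1. As for Igll1, Ctrl replicate 2 exceeded every IGF1 library. The difference was 1.16 ± 0.67 (SE) with all libraries and 1.83 ± 0.07 without Ctrl replicate 2. Cd79b, its partner, was already high in every library. It was at 56.4, 97.4 and 53.7 FPKM in Ctrl replicates 1, 2 and 3 and at 102.9, 100.6 and 102.9 FPKM in IGF1. Every IGF1 library was above every control library, Ctrl replicate 2 by the narrowest margin, and the difference was 0.61 ± 0.27 (SE), or 0.88 ± 0.04 without Ctrl replicate 2. The IGF1 mean was 3.70 times that of Ctrl replicates 1 and 3 for Cd79a and 1.85 times for Cd79b.

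Blnk, which couples Syk to the downstream enzymes, was at 7.35, 11.1 and 6.48 FPKM in Ctrl replicates 1, 2 and 3 and at 11.9, 14.1 and 14.2 FPKM in IGF1. The groups did not overlap, with Ctrl replicate 2 between the low controls and the IGF1 libraries. The difference was 0.66 ± 0.22 (SE) with all libraries and 0.87 ± 0.11 without Ctrl replicate 2.

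The commitment factors were far lower than the receptor genes in every library. Ebf1 was at 0.473, 2.94 and 0.722 FPKM in Ctrl replicates 1, 2 and 3 and at 2.14, 1.85 and 1.64 FPKM in IGF1, on 43 to 192 reads. It passed the filter of at least 1 FPKM in at least 3 libraries only through Ctrl replicate 2 and the IGF1 libraries. Ctrl replicate 2 was the highest library, at 1.56 times the IGF1 mean. Pax5 was at 0.0155, 0.582 and 0.0925 FPKM in Ctrl replicates 1, 2 and 3, on 2, 54 and 12 reads. In IGF1 it was at 0.351, 0.406 and 0.395 FPKM, on 35, 37 and 41 reads. Ctrl replicate 2 was again the highest, and Pax5 did not pass the filter, which leaves 7 of the 8 genes tested in the fit over all genes. The differences were 0.41 ± 0.45 (SE) for Ebf1 and 0.20 ± 0.20 for Pax5 with all libraries, and 0.85 ± 0.13 and 0.39 ± 0.06 without Ctrl replicate 2. At such low levels the pseudocount of 1 compresses differences, and with a pseudocount of 0.1 they were 0.80 and 0.97 with all libraries. In reads, the pooled ratio of IGF1 to Ctrl replicates 1 and 3 was 3.13 for Ebf1 (95% counting interval 2.53 to 3.91) and 7.09 for Pax5 (4.05 to 13.4), the latter on 14 control reads.

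**Figure D2:**
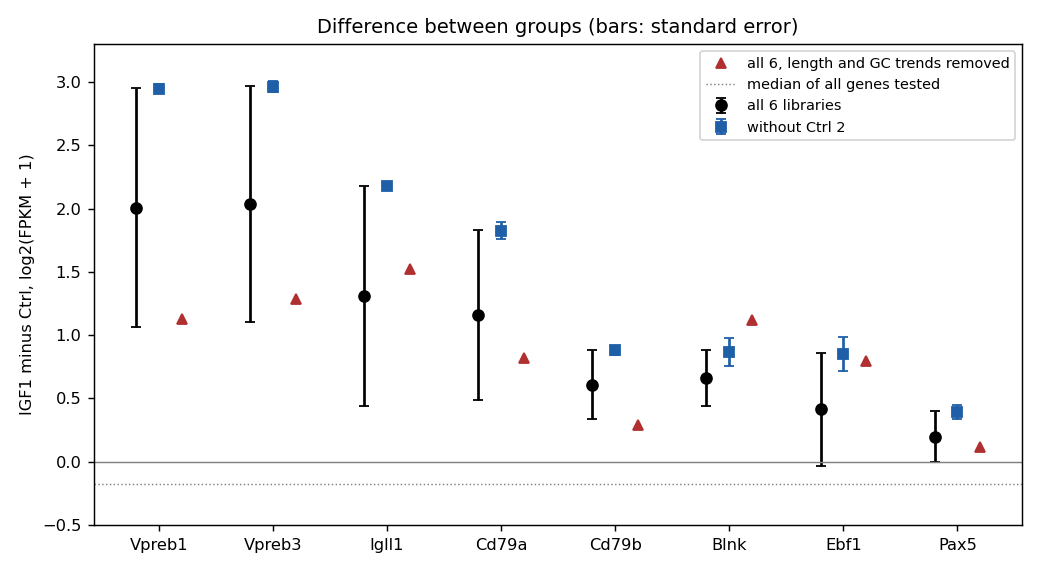
IGF1 minus Ctrl difference of each of the 8 genes on the log2(FPKM + 1) scale (y axis), with all 6 libraries (black circles), without Ctrl replicate 2 (blue squares) and with length and GC trends removed (red triangles); bars are standard errors and the dotted line is the median of all genes tested. Leaving out Ctrl replicate 2 raised all 8 differences, from 2.01 to 2.95 for Vpreb1, and shortened the bars.

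Across the 8 genes, every IGF1 library was above Ctrl replicates 1 and 3, an order that 36.7% of the genes tested also showed. In 4 of the 8 (Vpreb1, Vpreb3, Cd79b and Blnk) every IGF1 library was also above Ctrl replicate 2, where the background was 21.9% of the genes tested (59.4% in either direction). In the other 4 (Igll1, Cd79a, Ebf1 and Pax5) Ctrl replicate 2 was above every IGF1 library, as in 49.7% of the genes tested. With limma and all 6 libraries, 0 of the 7 genes tested passed a fold change over 2 with a Benjamini-Hochberg adjusted p under 0.05, against 1.98% of all genes tested that passed as higher in IGF1 and 6.61% in either direction. At an unadjusted p under the same threshold the count was 2 (Vpreb1 and Vpreb3), against 1743 of all 10449 genes tested in either direction. With voom on recovered reads it was 0, against 382 genes called higher and 680 lower. Without Ctrl replicate 2 the adjusted count was 4 (Vpreb1, Vpreb3, Igll1 and Cd79a), against 12.3% of all genes tested that were higher and 32.9% in either direction. The genes were chosen with this contrast known, and nothing is read from these counts.

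The size of the differences changed when trends of level on transcript length and GC content were removed in each library. With the trends on reference length and GC content removed, the differences with all libraries were 1.12 for Vpreb1, 1.28 for Vpreb3, 1.53 for Igll1, 0.82 for Cd79a, 0.29 for Cd79b, 1.12 for Blnk, 0.80 for Ebf1 and 0.12 for Pax5. Igll1 then exceeded Vpreb1, but its annotated longest transcript of 2.16 kb is longer than the 0.878 kb implied by its steps. With the implied length used instead, the value of Igll1 was 0.80.

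The rule of selection contrasts the surrogate light chain genes with the commitment factors. Per library, the mean log2(FPKM + 1) of Vpreb1, Vpreb3 and Igll1 exceeded that of Ebf1 and Pax5 by 3.68, 5.39 and 3.51 in Ctrl replicates 1, 2 and 3 and by 5.61, 5.64 and 5.76 in IGF1. The IGF1 libraries were all above the controls, with Ctrl replicate 2 close below. The gap widened from Ctrl to IGF1 by 1.48 with all libraries and by 2.07 without Ctrl replicate 2, part of which is the compression of low values. It was 0.95 with a pseudocount of 0.1 and 0.854 with trends on reference length and GC content removed. With those trends removed and Ctrl replicates 1 and 3 alone it was 1.21. It was 0.448 with trends on GC content and implied length removed, an alternative added after seeing the data. On the FPKM scale, which carries no pseudocount, the summed surrogate light chain level was 93.1, 90.6 and 56.2 times the summed factor level in Ctrl replicates 1, 2 and 3. In IGF1 replicates 1, 2 and 3 it was 121.8, 133.3 and 154.5 times. On this measure Ctrl replicate 2 lay with the other controls.

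Ratios between genes within 1 library do not depend on its depth, and these ratios were picked after the values were seen. The Vpreb1 to Igll1 ratio was 0.786, 0.919 and 0.768 in Ctrl replicates 1, 2 and 3 and 1.31, 1.35 and 1.39 in IGF1. The highest upper bound of the 95% counting interval among the controls was 0.998, in Ctrl replicate 2, and the lowest lower bound among the IGF1 libraries was 1.199. So Ctrl replicate 2, which matched the IGF1 libraries in the level of Vpreb1, lay with the controls in this ratio. Ratios of Vpreb1 to other genes often behaved this way, since for 60.9% of 10448 other genes tested the ratio of Vpreb1 to that gene was higher in every IGF1 library than in every control.

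The Vpreb3 to Igll1 ratio showed the same order, at 0.531, 0.597 and 0.478 in Ctrl replicates 1, 2 and 3 and at 0.880, 0.941 and 0.913 in IGF1. The Vpreb3 to Vpreb1 ratio, in contrast, was between 0.623 and 0.696 in all 6 libraries, and the counting intervals of all 6 overlapped. Thus Vpreb1 and Vpreb3 kept nearly 1 proportion while Igll1 shifted against both. The Vpreb1 to Ebf1 ratio was 32.6, 39.6 and 21.7 in Ctrl replicates 1, 2 and 3 and 58.1, 66.7 and 80.8 in IGF1. The Igll1 to Ebf1 ratio was 41.5, 43.1 and 28.2 in Ctrl and 44.5, 49.4 and 58.0 in IGF1. Its counting intervals overlapped between Ctrl replicates 1 and 2 and the IGF1 libraries. The ratio of Igll1 to another gene was higher in every IGF1 library than in every control for 11.6% of 10448 other genes tested. It was lower for 2.01%, the order of Igll1 against Vpreb1 and Vpreb3.

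The Cd79a to Cd79b ratio divided the libraries differently. It was 0.294, 0.733 and 0.325 in Ctrl replicates 1, 2 and 3 and 0.564, 0.660 and 0.630 in IGF1. Here Ctrl replicate 2 was highest, above the IGF1 libraries and far from the other controls.

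**Figure D3:**
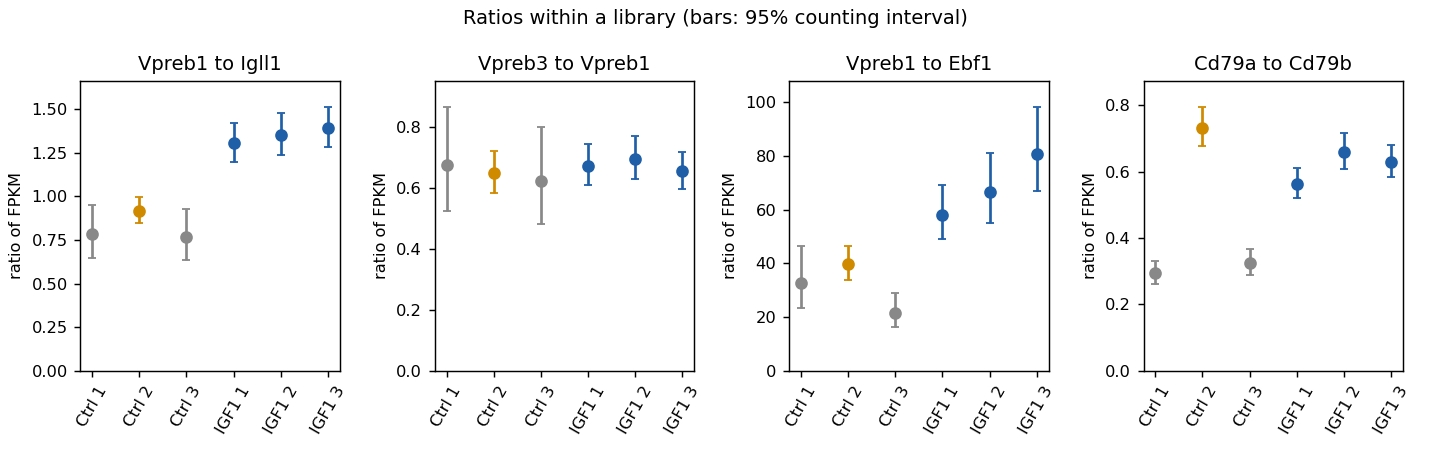
Ratio of FPKM of 2 genes within each library (y axis, from 0) for 4 pairs of the 8 genes, by library (x axis), with 95% counting intervals as bars; colors as in the plot of levels by library. Ctrl replicate 2 lies with the controls in Vpreb1 to Igll1 (0.919 against 1.31 to 1.39 in IGF1) and with the IGF1 side in Cd79a to Cd79b (0.733).

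The order of the 8 levels also varied between libraries. In the 3 IGF1 libraries it was Vpreb1, Cd79b, Igll1, Vpreb3, Cd79a, Blnk, Ebf1 and Pax5, from high to low, and the ranges over the 3 libraries of neighboring genes did not overlap. The counting intervals of Cd79b and Igll1, and of Igll1 and Vpreb3, overlapped in each IGF1 library. In Ctrl replicates 1 and 3 the order was Cd79b, Igll1, Cd79a, Vpreb1, Vpreb3, Blnk, Ebf1 and Pax5, where the counting intervals of Igll1 and Cd79a, and of Cd79a and Vpreb1, overlapped in both libraries. In Ctrl replicate 2 the order was Igll1, Vpreb1, Cd79b, Vpreb3, Cd79a, Blnk, Ebf1 and Pax5, where the intervals of Igll1 and Vpreb1 overlapped, as did those of Vpreb3 and Cd79a. Levels of different genes are compared per length, and the place of Igll1 depends on the length used for it.

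The other genes of the pathway were followed in 5 lists of 115 genes that leave the 8 out, of which 107 had a row and 85 could be tested with limma. With all 6 libraries, 0 of the 85 rose and 3 fell at a fold change over 2 and an adjusted p under the threshold, against 1.98% and 4.63% of all genes tested. At an unadjusted p, 3 were higher (Cd93, Ly6d and Vpreb2) and 6 lower, against 1743 of all 10449 genes tested in either direction. Voom called 1 higher (Blk) and 2 lower (Cbfb and Xrcc5), against 382 and 680 of all genes tested. Without Ctrl replicate 2, 9 rose and 17 fell, against 12.3% and 20.6%. The heavy chain gene Ighm and the light chain constant genes Igkc, Iglc1, Iglc2 and Iglc3 were not analysed here, so the partner of the surrogate light chain is not described.

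Of 23 pre-B receptor signalling genes tested, 0 passed with all libraries, and their median difference was -0.33 against -0.18 for all genes tested. Syk, the kinase the receptor engages, differed by 0.32 (limma adjusted p = 0.113), the Src-family kinase Lyn by -0.46 (limma adjusted p = 0.0363, under 2-fold) and the Tec-family kinase Btk by -0.30 (limma adjusted p = 0.208). Cd81, a tetraspanin and the most abundant gene of this list, differed by -0.81 (limma adjusted p = 0.0478, under 2-fold). Without Ctrl replicate 2, 2 genes of the list rose and 6 fell, with a median of -0.49 against -0.24 for all genes tested. The differences were then 0.45 for Syk (limma adjusted p = 1.10e-05), -0.46 for Lyn (4.41e-06) and -0.49 for Btk (1.17e-06), all under 2-fold. Cd81 fell by 1.04 (limma adjusted p = 2.16e-09).

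Among 22 B-lineage transcription factors tested, 0 rose and 1 fell, with a median difference of 0.17. The gene that fell was Cbfb, the partner of the Runx factors, by 1.56 on the log2(FPKM + 1) scale (limma adjusted p = 0.0483). Tcf3, which encodes E proteins that bind E-boxes, differed by -0.55 (limma adjusted p = 0.0764) and Ikzf1, which encodes Ikaros, by -0.63 (limma adjusted p = 0.0872). Spi1, a regulator of myeloid and lymphoid fate and the most abundant of the list, differed by 0.69 (limma adjusted p = 0.0388, under 2-fold), and Foxo1 by -0.15 (limma adjusted p = 0.290). Without Ctrl replicate 2, 1 gene of the list rose (Sox4) and 3 fell, with a median of 0.30. Cbfb fell by 2.06 (limma adjusted p = 7.35e-10). Differences were then -0.77 for Tcf3 (limma adjusted p = 1.63e-07), -0.91 for Ikzf1 (7.93e-08), 0.82 for Spi1 (1.24e-09) and -0.12 for Foxo1 (0.199), all under 2-fold. In the order of levels, Spi1 at 124 to 220 FPKM and Tcf3 at 27.5 to 50.1 FPKM stood far above Ebf1 and Pax5.

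Of 11 V(D)J recombination genes tested, 0 rose and 2 fell, with a median difference of -0.05. Those that fell were Xrcc5, an end-joining protein, by 1.77 (limma adjusted p = 0.0450), and Hmgb1, a DNA-bending protein, by 1.005 (limma adjusted p = 0.0412). Dntt, the polymerase that adds bases at gene segment joints, was at 220, 394 and 218 FPKM in Ctrl replicates 1, 2 and 3 and at 414, 403 and 419 in IGF1. It differed by 0.63 (limma adjusted p = 0.0930), or 0.91 without Ctrl replicate 2 (limma adjusted p = 6.08e-10, under 2-fold). The recombinase genes were low. Rag1 was between 0.193 and 0.501 FPKM in all libraries and was not tested, and Rag2 differed by -0.42 (limma adjusted p = 0.0582). Hmgb2, the most abundant of the list, differed by 0.49 (limma adjusted p = 0.0913). Without Ctrl replicate 2, 0 genes of the list rose and the same 2 fell, Xrcc5 by 2.26 (limma adjusted p = 2.42e-08) and Hmgb1 by 1.25 (3.88e-09), with a median of -0.02. Rag2 then differed by -0.31 (limma adjusted p = 0.00270) and Hmgb2 by 0.67 (8.22e-09), both under 2-fold.

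Of 17 early lymphoid surface and cytokine genes tested, 0 passed, with a median difference of -0.40. Il7r, the receptor for the cytokine on which mouse B-cell progenitors depend, was at 2.60, 8.43 and 2.51 FPKM in Ctrl replicates 1, 2 and 3 and at 3.87, 4.02 and 3.44 in IGF1. Ctrl replicate 2 was the highest library by more than the range of the others, and the difference was -0.04 (limma adjusted p = 0.931). Without that library the direction turned, to 0.43 (limma adjusted p = 0.000502, under 2-fold). Cd27, the most abundant of the list, differed by 0.03 (limma adjusted p = 0.866), or 0.19 without Ctrl replicate 2 (limma adjusted p = 0.00174, under 2-fold). Without that library 4 genes of the list rose and 5 fell, with a median of -0.51. Of 12 immunoglobulin and mature B-cell genes tested, 0 passed, with a median difference of -0.06. Vpreb2 was at 1.15, 12.7 and 1.46 FPKM in Ctrl replicates 1, 2 and 3 and at 13.4, 13.4 and 14.0 in IGF1, the pattern of Vpreb1 at a lower level. It differed by 1.81 (limma adjusted p = 0.0857), or 2.67 without Ctrl replicate 2 (limma adjusted p = 4.19e-10). H2-Ab1, the most abundant of the list, differed by -0.29 (limma adjusted p = 0.0659), also -0.29 without Ctrl replicate 2 (limma adjusted p = 3.53e-05, under 2-fold). Without that library 2 genes of this list rose and 1 fell, with a median of -0.03. Ms4a1, which encodes the mature B-cell antigen CD20, was at no more than 0.339 FPKM in any library.

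**Figure D4:**
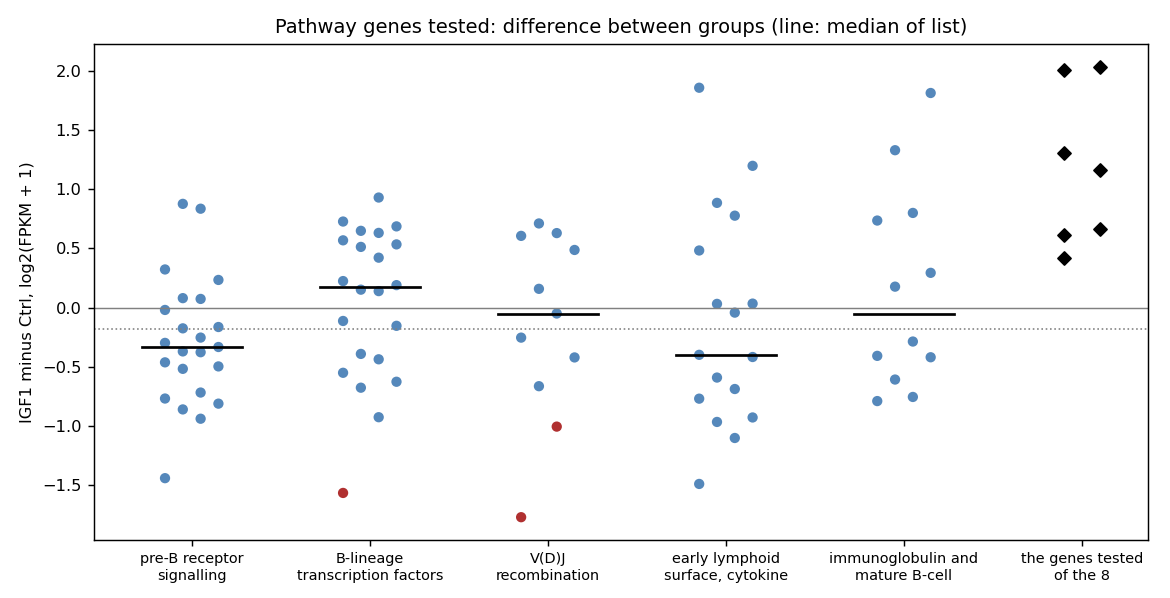
IGF1 minus Ctrl difference on the log2(FPKM + 1) scale (y axis) of each gene tested in the 5 pathway lists and of 7 of the 8 genes (black diamonds); red points passed the test, black lines are list medians and the dotted line is the median of all genes tested. The 7 genes, chosen with this contrast known, lie between 0.41 and 2.03, and the list medians between -0.40 and 0.17, all with the 6 libraries. Single genes of the lists run from -1.77 (Xrcc5) to 1.86 (Ly6d), so they overlap the 7 genes.

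The genes whose centred log2(FPKM + 1) values over the 6 libraries were nearest to each of the 7 genes tested included both B-lineage genes and genes of other functions. Vpreb1 was nearest to Elane, a neutrophil granule protease, at a root mean square difference of 0.0793, then to Ly6d and Vpreb2. Vpreb3 was also nearest to Elane, at 0.0658, followed by Ly6d and Hist1h2bc. Elane was at 92.8, 576 and 92.4 FPKM in Ctrl replicates 1, 2 and 3 and at 709, 696 and 692 in IGF1, with Ctrl replicates 1 and 3 low and Ctrl replicate 2 below the IGF1 libraries, as for Vpreb1 and Vpreb3. Igll1 was nearest to Hnrnpa0 (0.0706), Mzb1 and Scrib, and Cd79a to Msl1 (0.0366), Wdr26 and Ctsg, another granule protease. Cd79b was nearest to Dntt (0.0224), Nans and 2700060E02Rik, Blnk to Irak1bp1 (0.0416), Zfp865 and Cep250, and Ebf1 to Ino80d (0.0807), Osbp and Ankrd17.

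The sums of several lists of markers of other cells were, like that of the 8 genes, lower in Ctrl replicates 1 and 3 than in the other 4 libraries. The summed FPKM of the 8 genes was 126, 502 and 124 in Ctrl replicates 1, 2 and 3 and 478 to 499 in IGF1. The summed level of 13 neutrophil and monocyte markers was 3247 to 5826 in Ctrl and 5846 to 5887 in IGF1, most of it Mpo, Prtn3 and Ctsg. Of the 13, 6 were lower in every IGF1 library than in every control and 3 higher, against 37.4% and 21.9% of all genes tested. With limma, 4 of them fell (Camp, Ngp, S100a8 and S100a9) and 0 rose, against 4.63% of all genes tested that fell. Among the other lists 4 markers rose (Cd300c, Klrd1, Gp1bb and Treml1) and 0 fell, against 1.98% that rose. For 7 plasmacytoid dendritic cell markers the summed level was 165 to 635 in Ctrl and 668 to 699 in IGF1, most of it Bst2 and Cox6a2. For the 11 T and NK cell markers with a row it was 390 to 813 in Ctrl and 809 to 826 in IGF1, most of it Nkg7, while Cd3e was at no more than 0.206 FPKM. The sums of 13 HSC markers (537 to 750 in Ctrl, 495 to 510 in IGF1), of 11 erythroid markers (50.3 to 123 and 66.5 to 72.8) and of 8 stromal and endothelial markers (24.7 to 46.9 and 28.5 to 29.6) took other orders. The sum of 8 megakaryocyte and platelet markers was 54.6 to 78.7 in Ctrl and 103 to 113 in IGF1, with Gp6 at 0 in all libraries. The 6 genes of sorted-out antigens, Cd34 included, summed to 443 to 765 in Ctrl and 418 to 431 in IGF1. The part of other cells in the levels of the 8 genes was not tested, and in bulk RNA fewer cells of a type and less RNA per cell cannot be told apart.

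**Figure D5:**
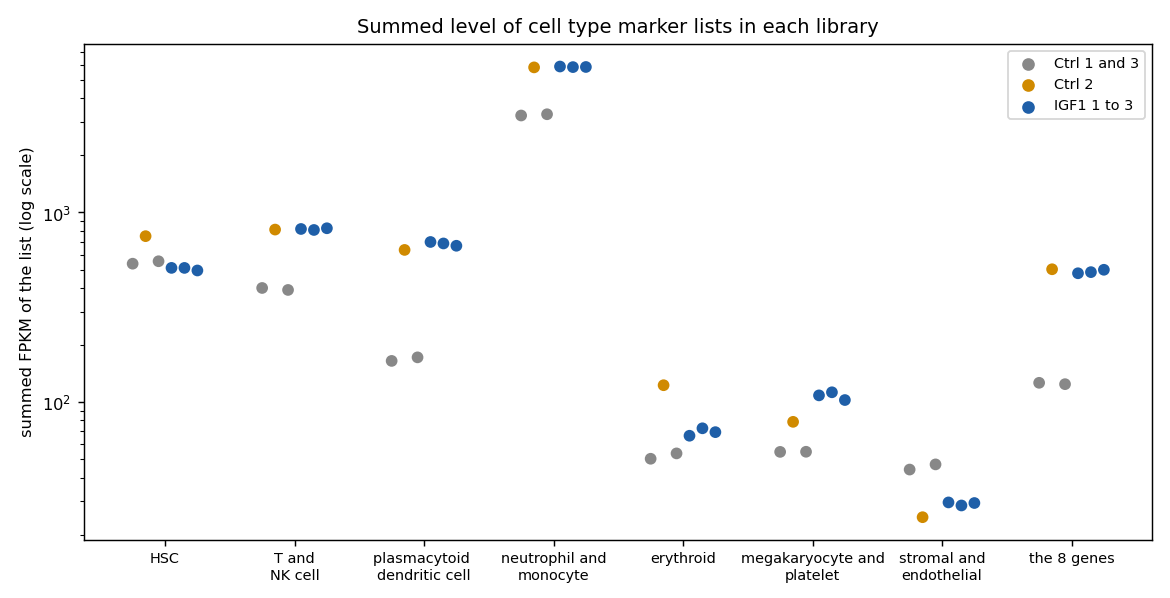
Summed FPKM of 7 cell type marker lists and of the 8 genes (y axis, log scale) in each library, with Ctrl replicates 1 and 3 in grey, Ctrl replicate 2 in orange and IGF1 libraries in blue. For the 8 genes, Ctrl replicate 2 (502) lies just above the IGF1 libraries (478 to 499), whereas it lies just below them for the neutrophil and monocyte list.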

How the data were processed

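The 6 RNA-seq libraries comprised 3 of control and 3 of IGF1-treated mice, grouped by their titles. The deposited files hold a single value for each symbol in each library, and these values from the authors were taken as FPKM because no source used here names the unit. The submitters' processing notes name fastp, HISAT2, StringTie and the builds GRCm38 and mm10, whereas the methods of the paper name fastp, RSEM and DESeq2. The kit was a stranded mRNA kit, and the strand setting of the counting is not given in the sources used here.

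The fit used limma (version 3.58.1, under R 4.3.3; lmFit and eBayes with a variance trend) on values transformed as log2(FPKM + 1). It covered the 10449 genes that reached 1 FPKM in 3 or more libraries. Calls required more than a 2-fold change together with an adjusted p (Benjamini-Hochberg) under 0.05. Whole reads, and thus relative depth, were recovered from the FPKM steps for 15640 of 15640 genes with any value (tolerance 0.02 read), against 16.7% of 2000 jittered rows. Recovered depth was 15879605, 11429198 and 15973834 reads in Ctrl replicates 1, 2 and 3 and 12262662, 11206800 and 12756225 in IGF1. Its scale rests on the largest step that fits the values of each gene, with no reference length used. The length implied by these steps was within 5% of the reference length for 47.81% of 1759 genes with 1 reference transcript. Counting intervals are exact 95% intervals on these reads and cover counting error only. Replicates within IGF1, and Ctrl replicates 1 and 3, differed beyond counting noise (mean chi-squared per gene 1.52 to 1.89) and were kept as separate libraries. Both steps were tested on simulated data.

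The 8 genes and the lists were chosen with earlier results of these data known. Genes named outside the 8 were fixed by rule: a set of known pathway genes, up to 3 called genes per list, the most abundant gene per list, and the 3 nearest genes to each of the 8 that could be tested. Of the known pathway genes, 1 is not reported here. Blk, Cd93, Ly6d, Ms4a1, Sox4 and the markers named singly were named after their values were seen. Loci came from GENCODE M21 on GRCm38, and promoters from RefSeq. Alternatives changed the pseudocount, scaling, filter, trend, threshold, libraries, replicate block and length and GC correction.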

Additional observations from a re-analysis of the deposited data

How the results depend on the processing

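All 112 alternative values of the 8 genes' differences were above 0, and 8 moved by more than 1 SD. Over all genes, 207 were called higher and 484 lower. These counts were 66 and 157 with a pseudocount of 5, 109 and 265 with no filter on low values, and 654 and 1476 with adjusted p alone. Voom on recovered reads called 382 higher. Scaling moved the median difference of all genes from -0.18 to between -0.01 and 0.04, and with it the split. It was 313 higher and 272 lower with quantile normalization, 300 and 259 with 75th percentile scaling, and 288 and 275 with TMM scaling. With length and GC trends removed it was 160 and 153, and with implied length 172 and 138. With these trends removed and Ctrl replicates 1 and 3 alone it was 1161 and 941. The last 2 alternatives were added after seeing the data.

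Leaving out 1 library gave 0 to 1281 higher and 0 to 2157 lower, with 1281 and 2157 without Ctrl replicate 2 and 0 without any of the other 5, where limma gave 685 to 1181 genes past 2-fold at an unadjusted p. Of the 691 genes called, 685 were also called without Ctrl replicate 2. With the replicate block limma called 0 genes higher and 0 lower over all genes (1780 at an unadjusted p), and 0 of the pathway genes either way. Deviations of same-numbered libraries correlated at -0.06, -0.05 and 0.01, so the libraries share only a number.

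Of the pathway genes, 0 were called higher and 3 lower. Higher calls were 1 with a pseudocount of 0.1, TMM scaling, quantile normalization or voom, 2 with 75th percentile scaling, 3 with trends removed, 4 with implied length, 18 with trends removed and Ctrl replicates 1 and 3 alone, and 9 with adjusted p alone. Lower calls were 0 with a pseudocount of 5, 1 with quantile normalization, trends removed or no filter, 11 with trends removed and Ctrl replicates 1 and 3 alone, and 9 with adjusted p alone. Leaving out 1 library gave 0 to 9 higher and 0 to 17 lower. The widening of the gap between surrogate light chain genes and commitment factors was 1.48, and between 1.13 and 2.07 with 1 library left out. It was 0.854 with length and GC trends removed and 0.448 with implied length and GC trends removed. The cause of these changes was not tested. Pax5 rests on 2 to 54 reads per library, which limits its precision.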
